A study of Mus musculus with 6 samples.

Results

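Base excision repair of oxidized DNA was followed here through 10 mouse genes: the glycosylase genes Ogg1, Mutyh, Nthl1, Neil1, Neil2 and Neil3, the nucleotide pool gene Nudt1, and Apex1, Polb and Xrcc1, which act after a damaged base has been removed. The genes were listed by name, as usual members of the pathway, out of 24454 gene numbers, at a time when earlier results of these data were known. All 10 were found by gene number, and 9 reached the mean of 1 CPM (counts of a gene per 1000000 assigned reads) needed for testing, as did 11428 genes in all. MTflEcad is an epithelial line grown from a tumour of the mammary gland; the strain is given as MMTV-Neu, in which the MMTV promoter drives the Neu oncogene in mammary epithelium. PBS cells were left without peroxide (0 µM), I80 cells had received 80 µM H2O2 daily for 7 months, and DI150 cells 150 µM for as long. Each line was sequenced in 2 libraries, described as biological duplicates. Each dose carries a single line name in the labels, so dose and line cannot be told apart. Nothing says whether the duplicates were separate long-term cultures, so the spread behind the p-values may be technical. The libraries held 21017849 to 26608715 assigned reads, so 1 read was worth 0.0376 to 0.0476 CPM.

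H2O2 oxidizes guanine to 8-oxoguanine, which can pair with adenine as well as with cytosine, and oxidizes pyrimidines as well. MTH1, the product of Nudt1, removes the oxidized nucleotide from the pool before it can be built in. In DNA, OGG1 cuts 8-oxoguanine away from cytosine, MUTYH removes the adenine wrongly placed opposite it, and NTHL1 and the NEIL proteins remove oxidized pyrimidines and further oxidation products. APE1, the product of Apex1, then cuts the strand at the baseless site, DNA polymerase beta (Polb) fills the gap, and XRCC1 holds the repair enzymes and the ligase together.

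Of 5 epithelial markers, Krt19 had no read in the treated lines and the other 4 were present in every library, with sums of 5980 and 5933 CPM in PBS, 2750 and 2744 CPM in I80, and 3098 and 2796 CPM in DI150. The fall of the sum was mainly that of the keratins, such as Krt18 at 2768, 967.6 and 920.3 CPM in PBS, I80 and DI150. Cdh1 was lower as well, with means of 623.8, 402.5 and 381.1 CPM in the same order. Its limma adjusted p against PBS was 0.000305 for I80 and 0.000153 for DI150. Epcam averaged 605.9, 681.7 and 1055 CPM and was higher in DI150 than in PBS (limma adjusted p = 0.000115). Fibroblast markers summed to 21.8 to 24.0 CPM over the 6 libraries, with Pdgfrb at 0 throughout and Dcn and Lum read in PBS replicate 2 alone. That even sum held opposite changes: Col1a2 was without a read in I80 and DI150 and averaged 15.3 CPM in PBS, Pdgfra averaged 5.27, 14.8 and 18.7 CPM in PBS, I80 and DI150, and Col1a1 2.11, 8.90 and 3.74 CPM. The immune sum was 9.81 and 17.2 CPM in PBS and 1.67 to 2.10 CPM in the treated lines, with Csf1r at 0 in the treated lines and Cd3e and Adgre1 at 0 throughout. Endothelial markers summed to at most 0.742 CPM. Adipocyte markers summed to 11.8 and 13.6 CPM in DI150 and at most 0.162 CPM elsewhere, where Lpl made up nearly all of the DI150 sum (11.8 and 13.6 CPM), with Fabp4 at 0 in DI150 and Adipoq at 0 throughout. The part of these differences in the results was not tested.

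Neil3, Apex1 and Polb fell in both treated lines, and a pair of glycosylase genes, Neil1 and Ogg1, rose in both. Mutyh fell in DI150 against both other lines. In bulk RNA, fewer cells of a type and less RNA per cell cannot be told apart. In I80 against PBS, 3 of the 9 tested genes rose and 3 fell, where 66.4% of all tested genes passed the test (32.3% higher and 34.2% lower), so 6 of 9 is close to the share over the whole table. In DI150 against PBS, 2 rose and 4 fell, where 68.7% of all genes passed (32.7% higher and 36.1% lower). In DI150 against I80, 1 gene, Mutyh, passed and was lower, where 43.8% of all genes passed (21.9% lower). The median log2 fold change of the 9 genes was 0.11 in I80 and -0.25 in DI150, each against PBS, beside -0.0020 and -0.032 over all tested genes. Passing means a limma adjusted p under 0.05 on log2(CPM + 0.5), a scale that understates the change of genes at low CPM. Both comparisons with PBS use the same PBS libraries.

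**Figure D1:**
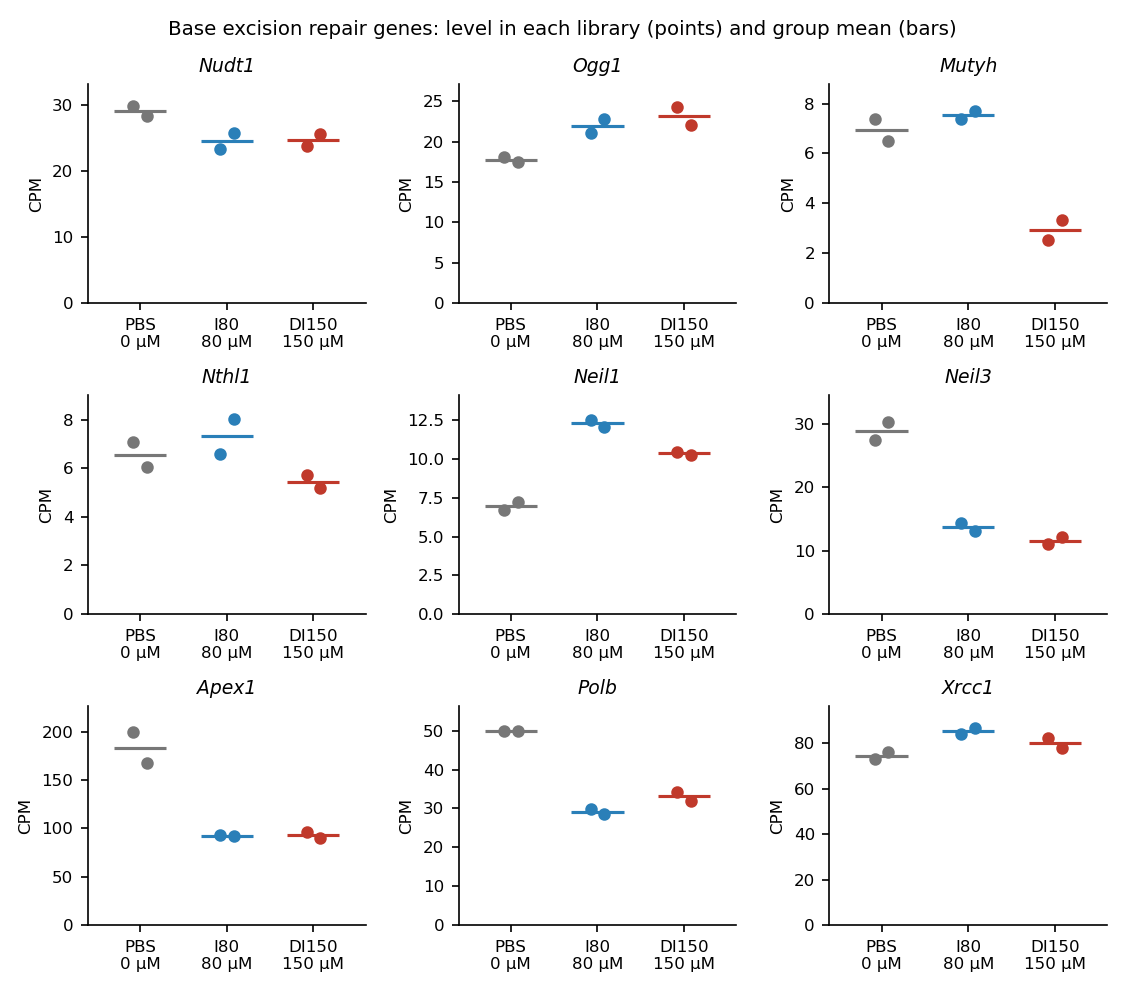
CPM of the 9 tested repair genes in each of the 6 libraries (points) with the mean of each line (bars), PBS at 0 µM, I80 at 80 µM and DI150 at 150 µM H2O2; each vertical axis starts at 0. Neil3, Apex1 and Polb were lower in every treated library than in any PBS library, Neil1 and Ogg1 were higher, and Mutyh was low in both DI150 libraries, at 2.52 and 3.32 CPM.

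Nudt1 (gene 17766, chromosome 5 of GRCm38 at 140321622 to 140338137) stood at 29.8 and 28.4 CPM in PBS, 23.3 and 25.8 CPM in I80, and 23.8 and 25.6 CPM in DI150. Every treated library was below both PBS libraries, and the treated lines overlapped each other. The differences did not pass, with log2 fold changes of -0.24 ± 0.10 SE in I80 against PBS (limma adjusted p = 0.0586) and -0.23 ± 0.10 in DI150 against PBS (limma adjusted p = 0.0649). The 95% interval of the fold ran from 0.722 to 0.990 in I80 and from 0.727 to 0.996 in DI150, before adjustment over all genes.

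Among the glycosylase genes, Neil3 fell most. NEIL3 acts on oxidized bases in single-stranded DNA and at replication forks, and its gene is known for expression in dividing cells. Neil3 (gene 234258, chromosome 8 at 53586867 to 53639065) was at 27.5 and 30.4 CPM in PBS, 14.3 and 13.1 CPM in I80, and 11.0 and 12.2 CPM in DI150. The 3 lines did not overlap, and their order followed dose. Neil3 was 2.11-fold lower in I80 than in PBS by a log2 fold change of -1.05 ± 0.11 SE (limma adjusted p = 0.000114), and 2.50-fold lower in DI150 than in PBS, by -1.28 ± 0.11 (limma adjusted p = 3.64e-05). The step between DI150 and I80 was -0.24 ± 0.11 and did not pass (limma adjusted p = 0.128, 95% interval of the fold 0.707 to 1.02). Beside this, of 12 proliferation genes, 9 fell and 1 rose in I80 against PBS, and 10 fell and 1 rose in DI150 against PBS, where 34.2% and 36.1% of all tested genes were lower. Mcm6, a subunit of the replicative helicase, averaged 241.0 CPM in I80 and 205.1 CPM in DI150, against 596.0 CPM in PBS. Ccne1, a cyclin of entry into DNA synthesis, was the one that rose, at 61.1 CPM in I80 and 78.8 CPM in DI150, against 49.0 CPM in PBS. Mki67, a marker of cycling cells, averaged 1121 CPM in I80 and 815.9 CPM in DI150, against 864.5 CPM in PBS, and did not pass (limma adjusted p = 0.0519 and 0.551). The part of this list in the fall of Neil3 was not tested.

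Neil1, whose product removes oxidized pyrimidines and ring-opened purines in double-stranded DNA, went the other way. Neil1 (gene 72774, chromosome 9 at 57142788 to 57148688) stood at 6.73 and 7.24 CPM in PBS, 12.5 and 12.1 CPM in I80, and 10.5 and 10.3 CPM in DI150. The lines did not overlap, and I80 was the highest. Neil1 rose 1.76-fold in I80 against PBS with a log2 fold change of 0.78 ± 0.11 SE (limma adjusted p = 0.000607), and 1.48-fold in DI150 against PBS, with 0.54 ± 0.11 (limma adjusted p = 0.00385). DI150 against I80 gave -0.24 ± 0.11 (limma adjusted p = 0.134), which did not pass.

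Ogg1 (gene 18294, chromosome 6 at 113326972 to 113334877) stood at 18.1 and 17.4 CPM in PBS, 21.1 and 22.8 CPM in I80, and 24.3 and 22.1 CPM in DI150. All treated libraries lay above both PBS libraries, while I80 and DI150 overlapped. Ogg1 rose by 23.4% in I80 against PBS (limma adjusted p = 0.0331) and by 30.3% in DI150 against PBS (limma adjusted p = 0.0123), with log2 fold changes of 0.30 ± 0.10 and 0.37 ± 0.10 SE. These are small rises: the I80 call was lost without I80 replicate 1 (limma adjusted p = 0.0804), I80 replicate 2 (0.195) or PBS replicate 2 (0.0773) and with DESeq2 (0.0642), and the DI150 call without DI150 replicate 1 (limma adjusted p = 0.0847). The 3′ part of Ogg1 overlaps Camk1 on the opposite strand by 754 bases; the library kit marks strand, but whether the counting used it is unstated. Camk1, a calmodulin-dependent kinase gene, was at 37.7 and 44.7 CPM in PBS, had no read in I80, and was at 0 and 0.0382 CPM in DI150, so its reads moved opposite to those of Ogg1.

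Mutyh separated the treated lines. Mutyh (gene 70603, chromosome 4 at 116807636 to 116819439) stood at 7.37 and 6.51 CPM in PBS, 7.37 and 7.71 CPM in I80, and 2.52 and 3.32 CPM in DI150. Behind these values PBS had 196 and 161 reads, I80 had 189 and 187, and DI150 had 53 and 87. Both DI150 libraries lay far below the rest, and I80 began where the higher PBS value stood. Mutyh was 2.38-fold lower in DI150 than in PBS by a log2 fold change of -1.13 ± 0.16 SE (limma adjusted p = 0.000479), and 2.58-fold lower in DI150 than in I80, by -1.24 ± 0.16 (limma adjusted p = 0.000931). I80 against PBS gave 0.11 ± 0.16 (limma adjusted p = 0.549, 95% interval of the fold 0.835 to 1.40). Among the 9 genes, it was the only called difference between the treated lines, and the call held in each of the 17 alternative settings (adjusted p up to 0.0149).

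Nthl1 (gene 18207, chromosome 17 at 24632680 to 24638838) stood at 7.07 and 6.07 CPM in PBS, 6.59 and 8.04 CPM in I80, and 5.71 and 5.19 CPM in DI150. DI150 lay below both other lines, and I80 overlapped PBS. None of its 3 comparisons passed (limma adjusted p = 0.434 in I80 against PBS, 0.187 in DI150 against PBS and 0.0752 in DI150 against I80). Neil2 (gene 382913, chromosome 14 at 63182439 to 63194154) was all but missing, with 1 read in each PBS library and none in I80 or DI150. Its level was under the floor of 3 reads a library (0.113 to 0.143 CPM) in every line, so no fold is given.

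The windows around the starts of the glycosylase genes that differed are shown because these genes moved in different directions, and because the Mutyh window is shared with a neighbour. Sequences are RefSeq windows of GRCm38.p6, from 250 bases before to 50 bases after a start, and 8 of the 10 genes had at least 1; Polb and Neil2 had none in the table. The Neil3 window is chr8:53639016-53639315 on the minus strand, that of Neil1 chr9:57148256-57148555 on the minus strand, that of Ogg1 chr6:113326726-113327025 on the plus strand, and that of Mutyh chr4:116807484-116807783 on the plus strand. Capitals mark matches, on either strand, to the searched motifs: TGACNNNGC (antioxidant response element, the site of NRF2), TTTCCCGC and TTTGGCGC (E2F), TTTGAA (cell cycle homology region), CACGTG (E-box), TGACGTCA (CRE) and GGGCGG (GC box). N stands for any base.
Neil3: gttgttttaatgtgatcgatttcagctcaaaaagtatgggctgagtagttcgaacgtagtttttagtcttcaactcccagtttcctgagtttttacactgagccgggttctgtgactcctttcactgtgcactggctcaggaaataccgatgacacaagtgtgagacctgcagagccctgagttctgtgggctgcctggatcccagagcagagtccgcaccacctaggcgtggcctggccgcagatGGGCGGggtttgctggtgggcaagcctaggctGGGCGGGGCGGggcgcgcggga
Neil1: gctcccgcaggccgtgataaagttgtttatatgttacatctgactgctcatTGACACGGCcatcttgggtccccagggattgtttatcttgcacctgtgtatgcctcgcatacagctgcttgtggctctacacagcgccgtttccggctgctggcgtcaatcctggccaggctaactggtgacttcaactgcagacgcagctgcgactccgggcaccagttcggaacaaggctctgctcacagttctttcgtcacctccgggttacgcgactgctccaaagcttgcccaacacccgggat
Ogg1: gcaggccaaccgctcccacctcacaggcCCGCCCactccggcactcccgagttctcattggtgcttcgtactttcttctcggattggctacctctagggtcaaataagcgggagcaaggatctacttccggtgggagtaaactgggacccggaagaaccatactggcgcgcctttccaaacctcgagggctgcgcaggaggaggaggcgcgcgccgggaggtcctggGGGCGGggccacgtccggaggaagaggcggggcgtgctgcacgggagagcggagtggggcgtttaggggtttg
Mutyh: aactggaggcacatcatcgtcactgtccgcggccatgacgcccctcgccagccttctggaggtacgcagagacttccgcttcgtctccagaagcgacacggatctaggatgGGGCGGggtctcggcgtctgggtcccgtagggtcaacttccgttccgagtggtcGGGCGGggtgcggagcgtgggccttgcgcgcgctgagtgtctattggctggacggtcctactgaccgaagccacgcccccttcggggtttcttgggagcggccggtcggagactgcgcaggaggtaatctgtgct
Neil1 held the only match to the antioxidant response element among the 11 windows of the 8 genes, TGACACGGC. It begins 199 bases before the annotated start on which the window is set. That start is not the outer end of the span given for Neil1, 57148688 on the minus strand. The whole window, with the match, lies inside the span. The start of a window need not be the outer end of a gene's span. The antioxidant response element motif occurs in 12.4% of all 32851 windows and in 14.4% of those of tested genes. GC boxes occur in 35.7% of all windows and in 64.0% of those of tested genes, and stood in a window of 6 of the 8 genes. In the Neil3 window they begin 4 bases before the start and 28 and 33 bases after it, the last 2 overlapping by 1 base. No window held either E2F motif (1.07% and 0.514% of all windows), the cell cycle homology region (17.9%) or the CRE (1.79%). A match is only a match of letters, not a bound site.

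Apex1 was by far the most abundant of the genes and fell in both treated lines. Apex1 (gene 11792, chromosome 14 at 50924949 to 50927188) stood at 200.0 and 167.2 CPM in PBS, 93.4 and 91.8 CPM in I80, and 96.2 and 89.9 CPM in DI150. The treated libraries lay close together and well below both PBS libraries. Apex1 was 1.98-fold lower in I80 than in PBS by a log2 fold change of -0.98 ± 0.09 SE (limma adjusted p = 5.83e-05), and 1.97-fold lower in DI150 than in PBS, by -0.97 ± 0.09 (limma adjusted p = 5.69e-05). DI150 against I80 was 0.0069 ± 0.093 (limma adjusted p = 0.965, 95% interval of the fold 0.864 to 1.17). Its window, chr14:50924699-50924998 on the plus strand, is shown for the E-boxes around its start, with the same motifs in capitals.
Apex1: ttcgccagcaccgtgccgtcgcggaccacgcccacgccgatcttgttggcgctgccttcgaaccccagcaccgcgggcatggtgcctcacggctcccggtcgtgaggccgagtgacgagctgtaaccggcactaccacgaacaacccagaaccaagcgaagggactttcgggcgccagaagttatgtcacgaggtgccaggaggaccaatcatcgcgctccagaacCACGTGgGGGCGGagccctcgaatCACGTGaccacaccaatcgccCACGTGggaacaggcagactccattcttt
CACGTG begins 24 bases before the start, at the start and 21 bases after it, with a GC box between the first pair. At least 1 CACGTG is found in 7.15% of all windows and in 10.0% of those of tested genes, and at least 3 in 0.0883% and 0.128%. No motif match in any window overlapped a match to a different motif.

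Polb (gene 18970, chromosome 8 at 22628119 to 22653464) stood at 50.02 and 49.94 CPM in PBS, 29.9 and 28.4 CPM in I80, and 34.3 and 31.9 CPM in DI150. The lines did not overlap, with I80 the lowest. Polb was 1.71-fold lower in I80 than in PBS by a log2 fold change of -0.77 ± 0.08 SE (limma adjusted p = 0.000111), and 1.51-fold lower in DI150 than in PBS, by -0.59 ± 0.08 (limma adjusted p = 0.000441). DI150 against I80 was 0.18 ± 0.08 and did not pass (limma adjusted p = 0.117).

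Xrcc1 (gene 22594, chromosome 7 at 24546699 to 24573438), the scaffold gene, stood at 72.9 and 76.2 CPM in PBS, 84.4 and 86.8 CPM in I80, and 82.2 and 77.9 CPM in DI150. Both treated lines lay above PBS. The 1.15-fold rise in I80 against PBS passed narrowly, with a log2 fold change of 0.20 ± 0.07 SE (limma adjusted p = 0.0354). The 1.07-fold difference of DI150 against PBS did not (limma adjusted p = 0.224, 95% interval of the log2 fold change -0.060 to 0.26). The I80 call was lost in 10 of the 17 alternative settings, DESeq2 (adjusted p = 0.0577) and the fits without I80 replicate 1 (limma adjusted p = 0.119), I80 replicate 2 (0.191), PBS replicate 1 (0.0683) or either DI150 library (0.0504 without DI150 replicate 1) among them.

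**Figure D2:**
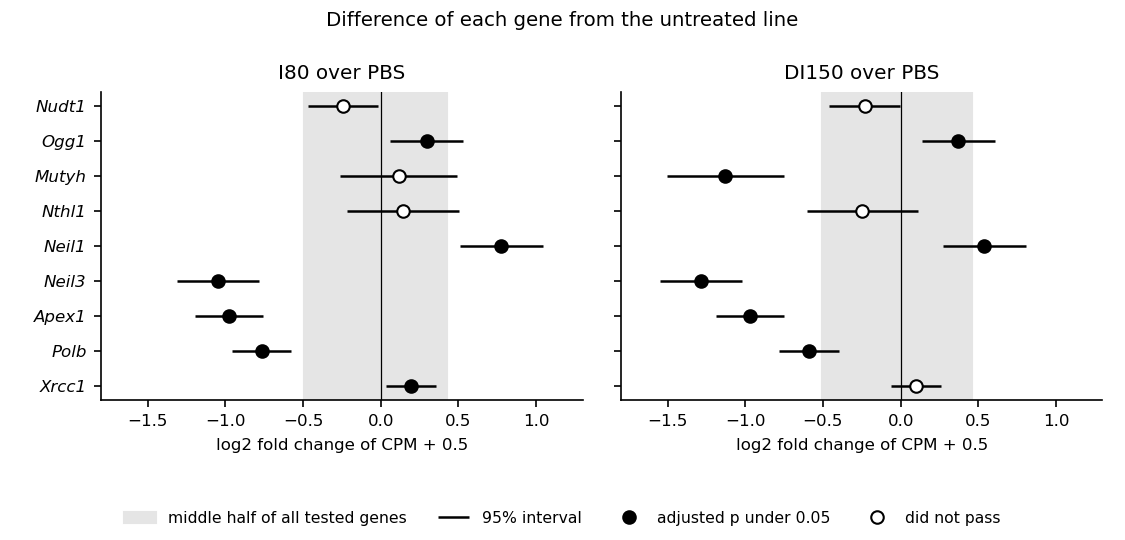
Log2 fold change of the 9 tested repair genes in I80 over PBS (left) and DI150 over PBS (right), with 95% intervals from the limma fit before adjustment; filled points passed at an adjusted p under 0.05, and the grey band runs between the quartiles of all 11428 tested genes. Neil3 and Apex1 lie left of the band in both panels, Polb left of it at -0.77 in I80 and -0.59 in DI150, Mutyh left of it in DI150 alone, and Neil1 right of it at 0.78 and 0.54.

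Of the 9 tested genes, 8 had groups that did not overlap in I80 against PBS, as did 83.7% of all tested genes. All 9 were apart in DI150 against PBS, beside 83.5% of all genes, and 6 in DI150 against I80, beside 78.5%. Per kilobase of exon (all annotated exons of a gene joined, which understates genes with little-used exons), Apex1 had the highest level in each line. It averaged 129.1 ± 16.3 CPM per kb in PBS, 65.1 ± 0.823 in I80 and 65.5 ± 3.11 in DI150 (SD, n = 2 each). Nudt1 followed at 19.8, 16.7 and 16.8 CPM per kb in PBS, I80 and DI150, then Xrcc1 at 12.8, 14.7 and 13.7. Polb overlapped Xrcc1 in PBS, at 12.7 CPM per kb, and came after Ogg1 in both treated lines, at 7.40 in I80 and 8.40 in DI150 against 10.0 and 10.6 for Ogg1. Neil3 was above Neil1 in PBS (5.21 against 3.73 CPM per kb) and below it in I80 (2.47 against 6.57) and DI150 (2.09 against 5.54). Mutyh and Nthl1 overlapped in PBS and I80 near 2.42 to 2.89 CPM per kb, and in DI150 Mutyh was last at 1.12. These levels were set side by side without a test.

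The genes that fell lie on 3 chromosomes whose tested genes were, at the median, lower in both treated lines than in PBS. Neil3 and Polb lie on chromosome 8, whose 620 tested genes had a median log2 fold change of -0.64 in I80 and -0.56 in DI150 against PBS, the lowest of the 20 chromosomes in both. Apex1 lies on chromosome 14, with medians of -0.59 in I80 and -0.41 in DI150, ranked 2 and 4 from the lowest. Mutyh lies on chromosome 4, with medians of -0.20 in I80 and -0.35 in DI150, ranked 5 in both. The remaining chromosomes with tested genes of the pathway had medians of -0.069 (chromosome 5) to 0.28 (chromosome 7) in I80, and of -0.051 (chromosome 9) to 0.28 (chromosome 17) in DI150. Polb was within the middle range of its chromosome: 37.6% of the other chromosome 8 genes were lower in I80 and 48.3% in DI150. Neil3 was further down, with 19.7% of them lower in I80 and 10.5% in DI150. For Apex1, 19.1% of the other chromosome 14 genes were lower in I80 and 15.6% in DI150. Neil1 stood high on chromosome 9, with 85.7% of the other genes below it in I80 and 81.5% in DI150.

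When log2 values were taken relative to the median of each library's tested genes on the same chromosome, a setting chosen after the data had been seen, Polb no longer passed. Its log2 fold change was then -0.16 ± 0.09 SE in I80 against PBS (limma adjusted p = 0.143) and -0.067 ± 0.088 in DI150 against PBS (limma adjusted p = 0.528). Neil3 still passed, at -0.44 ± 0.12 in I80 (limma adjusted p = 0.0101) and -0.76 ± 0.12 in DI150 (0.000441). Apex1 did too, at -0.37 ± 0.11 in I80 (limma adjusted p = 0.0213) and -0.56 ± 0.11 in DI150 (0.00242). Neil1 kept 0.65 ± 0.12 in I80 (limma adjusted p = 0.00141) and 0.57 ± 0.12 in DI150 (0.00261). Ogg1 and Xrcc1 did not pass on this scale (limma adjusted p = 0.0511 and 0.549 in I80, 0.0994 and 0.726 in DI150), and Nudt1 passed in DI150 alone, at -0.41 ± 0.10 (limma adjusted p = 0.00752). The table holds RNA alone, and the number of gene copies in each line was not measured. More or fewer copies of a chromosome or stretch therefore cannot be told apart from more or less RNA per copy. This limit holds for Neil3, Polb, Apex1 and Mutyh, for genes that rose such as Neil1, and for their neighbours.

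**Figure D3:**
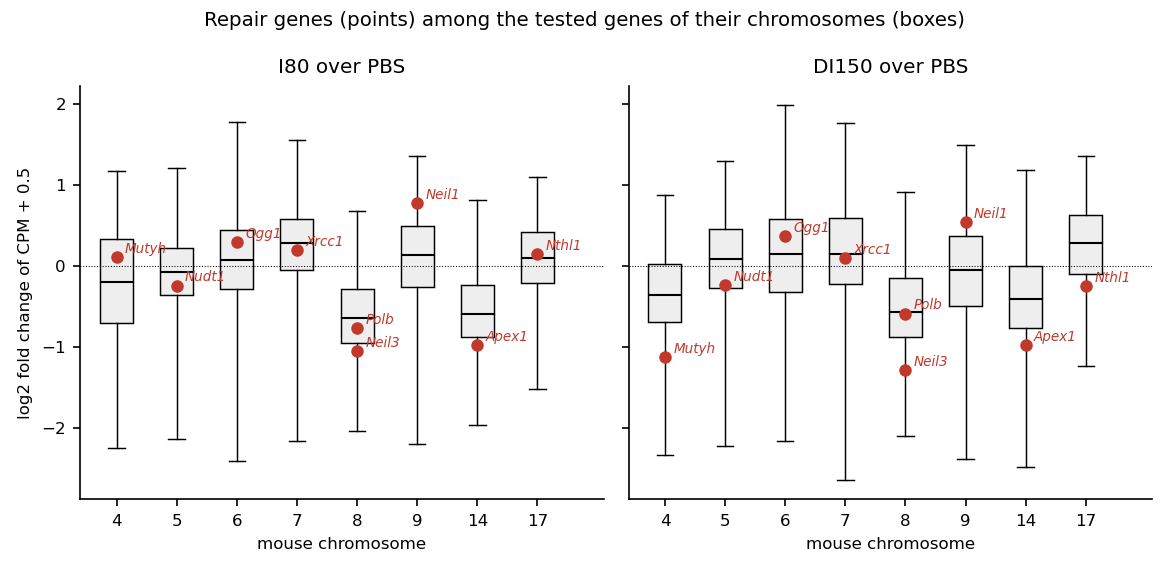
Log2 fold change in I80 over PBS (left) and DI150 over PBS (right) of the 9 tested repair genes (red points) on the tested genes of their chromosomes; boxes show the median and quartiles and whiskers the 5th and 95th percentiles over genes. Chromosomes 8 and 14 have medians of -0.64 and -0.59 in I80, and Polb lies near the median of chromosome 8 in both panels.

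The surroundings of Mutyh differed between the treated lines in the same direction as Mutyh. Of the 82 tested genes that start within 5 Mb of it, 80.5% were called lower in DI150 than in I80, beside 21.9% of all tested genes, with a median log2 fold change of -0.65, where chromosome 4 as a whole stood at -0.11. Against PBS the same neighbours had a median of 0.35 in I80 and -0.33 in DI150. Bins of 10 Mb, chosen after the values were seen, placed the lower stretch: the median was -0.58 in the 27 genes 20 to 10 Mb before Mutyh, -0.66 in the 67 genes of the next bin, -0.52 in the 94 genes up to 10 Mb after it, and 0.19 in the 126 genes 10 to 20 Mb after it. Gene by gene, the turn lay between Rragc, 7.11 Mb after Mutyh (-0.84), and Fhl3, 7.89 Mb after it (0.34), both named after their values were seen. Bins farther before it held 17 and 12 genes, with medians of -0.84 and -0.64. Mutyh itself, at -1.24, was below all but 5 of its 82 neighbours. Neil3 had only 9 tested neighbours within 5 Mb, with medians of -0.68 in I80 and -0.65 in DI150 against PBS. The 79 neighbours of Apex1 had medians of -0.70 and -0.63, the 45 of Polb -0.67 and -0.60, and the 69 of Neil1 0.48 and 0.31. The 43 around Neil2 had -0.58 and -0.53, though too few of its own reads were found to compare, the 115 around Xrcc1 0.36 and 0.60, and the 155 around Nthl1 0.14 and 0.061. Those of Ogg1 (49 genes, 0.028 and 0.17) and Nudt1 (127 genes, -0.17 and -0.080) lay nearer to 0. Of the 79 neighbours of Apex1, 21 were lower than Apex1 in I80 and 21 in DI150, against PBS. Apex1 thus lay between the quartiles of its neighbours in both lines. Of the 45 of Polb, 18 and 23 were lower than Polb, and of the 9 of Neil3, 3 and 2 were lower than Neil3. Of the 69 of Neil1, 53 and 45 were lower than Neil1. The part of these neighbourhoods in the genes' own differences was not tested.

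**Figure D4:**
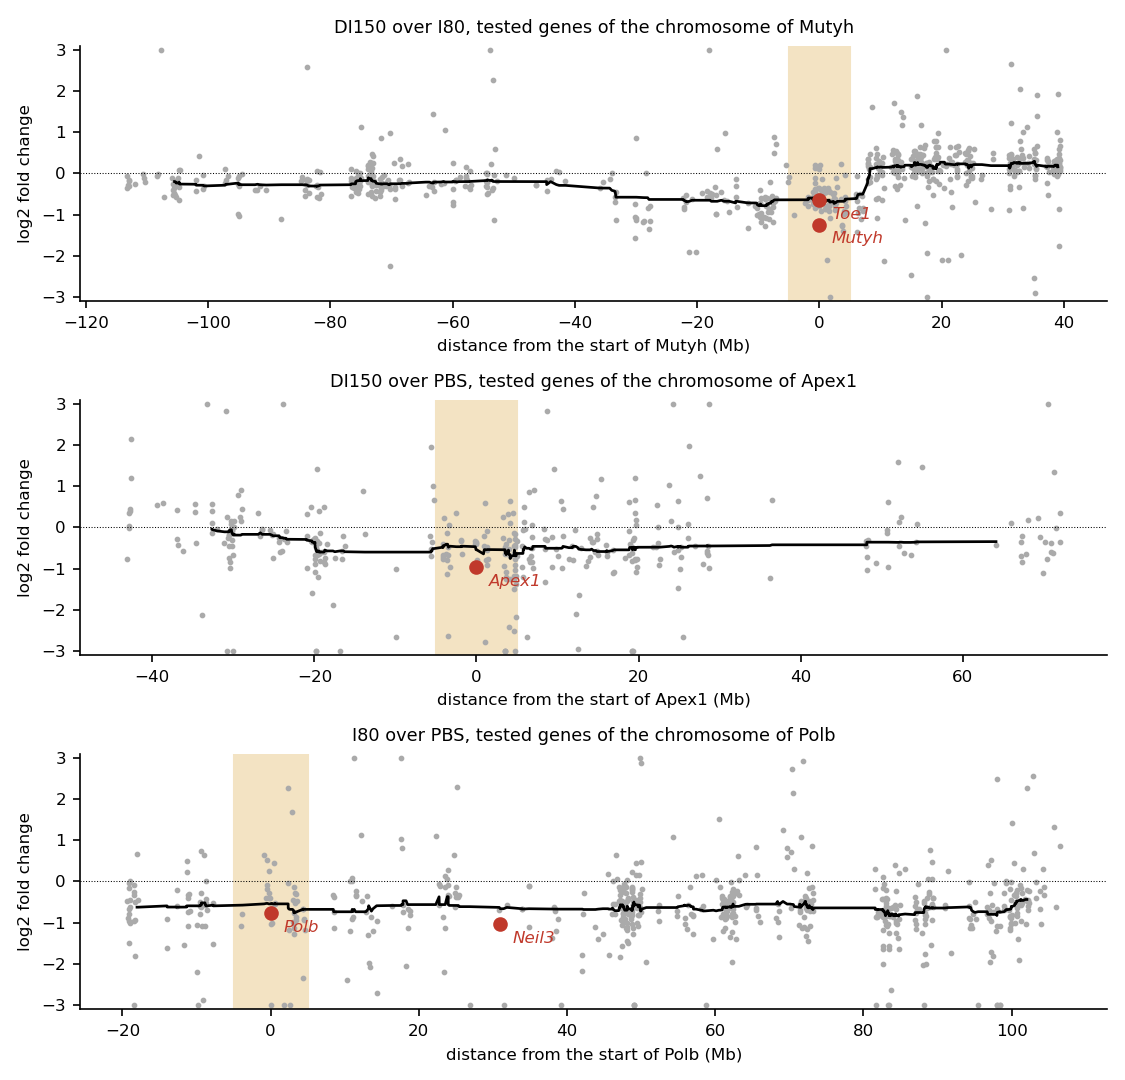
Log2 fold change of each tested gene (grey points, drawn at no more than 3 either way) against the distance of its start from that of Mutyh (top, DI150 over I80), Apex1 (middle, DI150 over PBS) and Polb (bottom, I80 over PBS); the black line is a running median of neighbouring genes, and the shaded band spans 5 Mb to either side. Around Mutyh the median is -0.65 within the band and turns positive before 10 Mb after it, while on the chromosome of Polb and Neil3 it stays below 0.

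Among the 10 genes, 5 begin head to head with a gene on the opposite strand, within 1 kb, so that the pair shares a start region. Toe1, which encodes a nuclease that trims RNA ends, begins 35 bases from Mutyh. It averaged 42.3 CPM in PBS, 41.4 CPM in I80 and 26.1 CPM in DI150, and was lower in DI150 than in I80 (log2 fold change -0.65, limma adjusted p = 0.000883), the same value as the median of the genes around Mutyh. Osgep, a gene of transfer RNA modification, begins 56 bases from Apex1 and averaged 16.4 CPM in PBS, 13.9 CPM in I80 and 12.7 CPM in DI150. Its log2 fold change was -0.24 in I80 (limma adjusted p = 0.0971) and -0.36 in DI150 (0.0224) against PBS, where Apex1 had -0.98 and -0.97. Tsc2, the tuberin gene of growth control, begins 4 bases from Nthl1 and rose in I80 and DI150 (log2 fold changes 0.36 and 0.38, limma adjusted p = 0.0047 and 0.00354). Mad1l1, a spindle checkpoint gene, begins 14 bases from the first annotated start of Nudt1 and fell in both (-0.45 and -0.52, limma adjusted p = 0.00149 and 0.000677). Nudt1 also overlaps Mrm2 on the opposite strand by 4225 bases, whose reads averaged 9.64 CPM in PBS, 9.34 CPM in I80 and 8.27 CPM in DI150 and did not pass. The start of Mrm2, at 140331898, lies within the windows of the later Nudt1 starts (140331610 to 140331909 and 140331706 to 140332005). Pinlyp, 31 bases from Xrcc1, was too low to test, with a mean of 0.195 CPM in PBS. Without strand in the counts, reads of overlapping genes cannot be told apart.

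The other steps of the pathway were described by 7 lists with 49 genes, 47 of them tested. In I80 against PBS, 7 rose (14.9%, beside 32.3% of all tested genes) and 18 fell (38.3%, beside 34.2%), with a median log2 fold change of -0.050. In DI150 against PBS, 4 rose (8.51%, beside 32.7%) and 27 fell (57.4%, beside 36.1%), with a median of -0.31 beside -0.032 over all. DI150 against I80 gave 2 higher (4.26%, beside 21.9%) and 13 lower (27.7%, beside 21.9%). Leaving out I80 replicate 2 gave 4 higher in I80, and leaving out either DI150 library gave 2 higher in DI150. In DI150 against I80, leaving out I80 replicate 1, I80 replicate 2 or DI150 replicate 1 gave 6, 8 and 8 lower, and leaving out either I80 library or DI150 replicate 3 gave 1 higher. Of the other glycosylases, which handle uracil and alkylated bases, 2 of 4 tested fell in each line. Ung, the main uracil glycosylase, averaged 9.28 CPM in I80 and 24.0 CPM in DI150, against 43.2 CPM in PBS (log2 fold change -2.14 in I80, limma adjusted p = 4.13e-05, and -0.83 in DI150, 0.00561). Of 6 tested genes of nucleotide pool cleaning, 1 rose and 3 fell in each line. Nudt5, which hydrolyses ADP-ribose and oxidized guanine nucleotides, rose 1.95-fold in I80 and 1.70-fold in DI150 against PBS (limma adjusted p = 1.69e-05 and 5.41e-05). Samhd1, a dNTP hydrolase, averaged 59.6 CPM in I80 and 33.5 CPM in DI150, against 123.5 CPM in PBS.

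Of 7 tested genes of PARP signalling and ligation, 5 fell and 1 rose in each line against PBS, where 34.2% of all tested genes were lower in I80 and 36.1% in DI150. Parp1, which senses strand breaks, averaged 223.8 CPM in I80 and 230.0 CPM in DI150, against 343.9 CPM in PBS (limma adjusted p = 0.000499 and 0.000684). Parg, which removes poly(ADP-ribose), averaged 34.0 CPM in I80 and 32.2 CPM in DI150, against 60.7 CPM in PBS. Parg and Parp2 lie on chromosome 14, where Parp2 had log2 fold changes of -0.59 in I80 and -0.41 in DI150, beside chromosome medians of -0.59 and -0.41. Parp1 lies on chromosome 1, with medians of -0.43 and -0.35. The other genes of the list lie on other chromosomes, and the part of the chromosomes in these falls was not tested. Poll, a polymerase related to Polb, rose 1.24-fold in I80 and 1.23-fold in DI150 (limma adjusted p = 0.0168 and 0.0179). Of 5 tested genes of abasic site and end processing, 1 fell in I80 and 3 fell in DI150, and none rose. Hmces, which shields abasic sites in single-stranded DNA, fell to 23.4 CPM in I80 and 15.9 CPM in DI150, against 38.4 CPM in PBS. Apex2, a relative of Apex1, averaged 9.17 CPM in DI150 and 17.1 CPM in I80, and 16.9 CPM in PBS, and was lower in DI150 than in PBS (limma adjusted p = 0.00148).

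Of 14 tested genes of long patch synthesis, 2 rose and 5 fell in I80, and 1 rose and 10 fell in DI150, against PBS. Set against the 34.2% and 36.1% of all tested genes that were lower, the I80 count is near the whole table and the DI150 count above it. Rfc3, a subunit of the clamp loader, fell most, with 33.1 CPM in I80 and 29.8 CPM in DI150, against 70.1 CPM in PBS. Pold1, the catalytic subunit of DNA polymerase delta, averaged 109.3 CPM in I80 and 65.5 CPM in DI150, against 94.0 CPM in PBS. Of 7 tested mitochondrial genes, 2 rose and 2 fell in I80, and none rose and 3 fell in DI150. Polg, the mitochondrial polymerase, averaged 92.9 CPM in I80 and 76.1 CPM in DI150, against 109.6 CPM in PBS. Of 4 tested genes of ubiquitin control of polymerase beta, 1 rose and none fell in I80, and 1 rose and 1 fell in DI150. Huwe1, a ubiquitin ligase that targets the polymerase, averaged 522.1 CPM in DI150 and 819.7 CPM in PBS (limma adjusted p = 0.000482). Cdkn2a, the fifth gene of that list, had no read in any library, and Tdg was too low to test.

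Among other repair routes, mismatch repair had 3 of 6 tested genes lower in I80 and 4 of 6 in DI150, and none higher. Nucleotide excision repair had 5 of 11 higher and 2 lower in I80, and 5 higher and 3 lower in DI150. Of all tested genes, 32.3% were higher and 34.2% lower in I80, and 32.7% higher and 36.1% lower in DI150. Ercc1, a subunit of a junction-cutting nuclease, led it, at 119.4 CPM in I80 and 247.9 CPM in DI150, against 39.7 CPM in PBS (log2 fold change 1.58 and 2.63, limma adjusted p = 7.98e-07 and 6.91e-08). No set test was run on these lists.

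**Figure D5:**
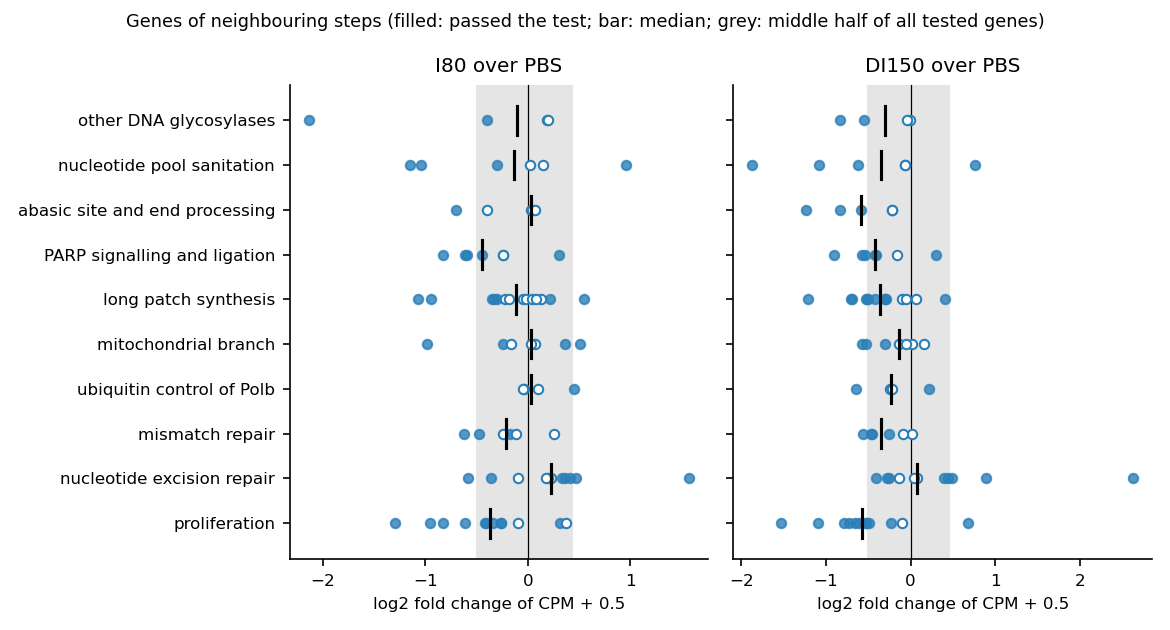
Log2 fold change in I80 over PBS (left) and DI150 over PBS (right) of the tested genes of 10 lists around the pathway; each point is a gene, filled where it passed at an adjusted p under 0.05, black bars are list medians, and the grey band runs between the quartiles of all tested genes. In DI150 the medians of 9 lists lie below 0, and that of nucleotide excision repair is 0.071.

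The genes whose 6 values ran closest to each repair gene were found by the root mean square difference of log2(CPM + 0.5), each gene centred on its own mean. For Neil3 the closest were Fzd6 (0.028), at 161.6, 76.0 and 64.0 CPM in PBS, I80 and DI150, and Paqr4 (0.062). For Neil1 they were Chac2 (0.022) and Ss18 (0.027), and for Mutyh Tmem132a (0.062) and Psip1 (0.084). Psip1 lies on chromosome 4 like Mutyh, in the bin 40 to 30 Mb before it. The 12 genes of that bin had a median of -0.64 in DI150 against I80. For Apex1 the closest were Nip7 (0.038) and Kctd3 (0.044), and for Polb Rbfox2 (0.032) and Lgals8 (0.036). Ogg1 ran closest to Rpl32 and Fntb, Nudt1 to Bms1 and Grb2, Nthl1 to Mrpl21 and Thyn1, and Xrcc1 to Dmtn and Ndufs8. With 6 libraries in 3 lines, such closeness is a description only.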

How the data were processed

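RNA of 6 samples (PBS, I80 and DI150, 2 libraries each) was depleted of ribosomal RNA (described more than once, with differing kits) and sequenced, per the labels' protocols. STAR and the mm10 build are named, without versions, in the submitters' processing notes. For gene counter, annotation and strand setting, the sources used here give nothing. CPM were deposited by the authors as 1 table, whose columns each sum to 1000000. A DI150 column is numbered 3 where the labels have 1 and 2, and is called DI150 replicate 3.

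All values were whole multiples of 1 step per column (tolerance 1e-06 reads, 100% of 146724 values), so whole reads were recovered for the count tests. Symbols came from RefSeq (GRCm38.p6) for 24374 gene numbers (99.67%), strands and exon lengths from the GENCODE annotation of the same build. Adprs was matched by a synonym.

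The main test was limma 3.58.1 (R 4.3.3; trend; 3 residual and 4.52 prior degrees of freedom) on log2(CPM + 0.5) for genes averaging 1 CPM or more, the 3 lines fitted together, two-sided, Benjamini-Hochberg over 11428 genes. The fit was tested on simulated data. Alternatives included edgeR 4.0.16 and DESeq2 1.42.0. Companion genes named are the 2 with the highest and the 2 with the lowest log2 fold change of a list in each comparison with PBS. They come from called genes with at least 5 CPM and no overlap, and not all are printed. A gene at the high end may itself be lower than in PBS. Partner genes, the 2 genes nearest in pattern and list genes too low to test are named besides. Mki67 is named outside this rule. The members and lists were chosen with earlier results of these data known. Some items of the lists are not reported here, and the counts and medians of the lists leave them out. Floors cover counting error only.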

Additional observations from a re-analysis of the deposited data

Results flagged for a closer look

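Mutyh is listed because the effects of the treated lines differed, as tested directly by DI150 against I80 (log2 fold change -1.24, limma adjusted p = 0.000931, 2 against 2 libraries without overlap). Of the 47 other genes named by the fixed rule and tested, 18 differed in the same test. The differences of DI150 against I80 were -0.65 for Toe1, -0.87 for Apex2 and -0.54 for Hmces. In long patch synthesis they were -0.73 for Pold1, -0.84 for Rfc4, -0.47 for Pold2 and 0.33 for Rfc1. They were -0.82 for Samhd1, -0.32 for Dut, -0.74 for Huwe1, -0.24 for Stub1, -0.49 for Mgme1 and -0.29 for Polg. Apex2 and Huwe1 lie on chromosome X, whose 329 tested genes had a median of -0.59 in DI150 against I80. The part of that chromosome in their differences was not tested. Ung had 1.31, Ercc1 1.05, Ercc5 0.48, Ercc3 -0.19 and Ccne1 0.36. All passed with limma adjusted p from 4.06e-05 to 0.0437, where 43.8% of all tested genes passed; most of these genes had been named for their differences from PBS. Groups of 2 libraries are too small to look for single outlying samples.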

How the results depend on the processing

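Over 17 alternatives, the 27 differences of the 9 repair genes kept their side of the threshold in 436 of 459 results. No difference that passed changed direction. Differences near 0 that did not pass could change sign, as in DI150 against I80 for Nudt1 (down to -0.20), Ogg1 (-0.057) and Apex1 (-0.19). The calls for Neil3, Apex1 and Neil1 against PBS and for Mutyh in DI150 held in every alternative run. The number of repair genes higher in I80 than in PBS was 1 with DESeq2, with the replicate block and relative to the chromosome median, in place of 3, and 1 to 2 without a library (1 without either I80 library). In DI150 against PBS it was 1 relative to the chromosome median, in place of 2, and 1 to 2 without a library (1 without DI150 replicate 1). The number lower in DI150 than in I80 was 2 in the fit on the 4 libraries compared and relative to the chromosome median, in place of 1, Nthl1 being the gene added (limma adjusted p = 0.0363 and 0.0134). Over all tested genes, DI150 against I80 gave 2503 higher and 2505 lower genes, 1361 and 1327 with the replicate block, and 1296 to 3070 higher and 1181 to 3021 lower without a library. Leaving out each I80 library or DI150 replicate 1 lowered both counts by over 1.5 times, and leaving out DI150 replicate 3 that of higher genes. Same-numbered libraries did not deviate together in every pair of lines (correlations of deviations 0.023, -0.055 and 0.21), so the replicate numbers were not taken as pairs. In the replicate block setting, DI150 replicate 3 was the only library of its number and was fitted exactly. The DI150 differences of that setting therefore rest on DI150 replicate 1, much as when a library is left out. Relative to the chromosome median, a setting added after the data were seen, some log2 fold changes of other named genes that passed in either fit turned sign. They were, in I80 against PBS, Osgep (0.37), Toe1 (0.25), Smug1 (0.088), Ercc6 (0.022) and Parp2 (0.019). In DI150 against PBS they were Osgep (0.052) and Parp2 (0.0013), and in DI150 against I80 Tsc2 (-0.25). These changes follow from the subtraction of the chromosome medians, and the cause of the others was not tested. With 2 libraries a line, small differences such as those of Ogg1, Xrcc1 and Nudt1 are near the limit of the test.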
